A study of Mus musculus with 24 samples.

Results

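The comparison described here set 2 selective COX-2 inhibitors, treated as 1 drug class, against no drug in the mouse thoracic aorta. The class was every library whose label names celecoxib or rofecoxib, 16 of the 24 RNA-seq libraries in the series, and the reference was the other 8, from mice on chow without drug. Each drug contributed 8 libraries and was given the same weight, so the class effect of a gene was the mean of its celecoxib and rofecoxib log2 fold changes. All mice were wildtype adult male C57BL/6 aged 10 to 12 weeks. They ate regular chow for 3 weeks, with celecoxib at 100 mg/kg/day, with rofecoxib at 50 mg/kg/day or with neither. Every mouse, controls included, was then injected intraperitoneally with interleukin-1β (IL-1β) at 10 ug/kg and killed 4 h later, with collection at ZT11. The doses of the drugs differed, and the effect of IL-1β itself was not measured, because no group went without it. The labels call the 8 libraries of a group biological replicates and tie none of them to a named animal. Each title also carries a running number, whose meaning the titles do not give. These numbers follow the groups without overlap, celecoxib first, then rofecoxib, then control. Anything that went with their order therefore cannot be told apart from the drugs.

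COX-2, encoded by Ptgs2, is the inducible cyclooxygenase: it turns arachidonic acid into prostaglandin H2, from which prostacyclin, prostaglandin E2, thromboxane and other prostanoids are made. In arteries cytokines such as IL-1β induce it, and prostacyclin from the vessel wall relaxes smooth muscle and restrains platelets. Both drugs block the enzyme's activity and not its transcription, and the class is known for cardiovascular side effects, which is one reason to study arteries of treated animals.

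Each library held between 21668798 and 21700121 counted reads, and 14528 of the 25941 genes in the table had enough reads to test. Smooth muscle markers were high: Acta2, smooth muscle actin, lay at 10803 to 15759.7 CPM (median 14069) in control, 12862 to 19190.5 (median 14812) with celecoxib and 10731 to 17395 (median 12175) with rofecoxib, where CPM is the read count scaled to a common library total. Of the contractile genes, 0 of 16 were called (defined below), against 1.77% of all genes. Other tissues were present in varying amounts: Ucp1, the uncoupling protein of brown fat, ranged over 57.7 to 602 CPM (median 158) in control, 11.1 to 215 (median 115) with celecoxib and 151 to 986 (median 438) with rofecoxib. In bulk tissue, fewer cells of a type and less RNA per cell cannot be told apart. Celecoxib replicate 2 stood apart in many of the genes below, and without it the count of called genes was 538 in place of 257. For several of the genes named below, the value without it is given too.

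With the drugs taken as a class, 257 of 14528 genes (1.77%) differed from control by edgeR's quasi-likelihood test at a Benjamini-Hochberg adjusted p under 0.05, which is what "called", "rose" and "fell" mean below. Of these, 123 rose (0.847% of genes tested) and 134 fell (0.922%). With 1.77% of all genes called, 0 called members in a short list is not a result about that list. At an unadjusted p under 0.05 there were 2930 genes (20.2%), 1542 higher (10.6%) and 1388 lower (9.55%). Scaling by library size alone turned the balance to 195 higher and 105 lower, and it moved the median of all genes to 0.06 from 0.02. The changes were small: 187 of the 257 were under 1.5-fold and 14 passed 2-fold, 3 of them higher and 11 lower. The median log2 fold change of the risen genes was 0.38 for the class, 0.34 with celecoxib and 0.41 with rofecoxib. For the fallen genes it was -0.44 for the class, -0.32 with celecoxib and -0.52 with rofecoxib. Both drugs were set against the same 8 control libraries, so their estimates are not independent of each other.

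**Figure D1:**
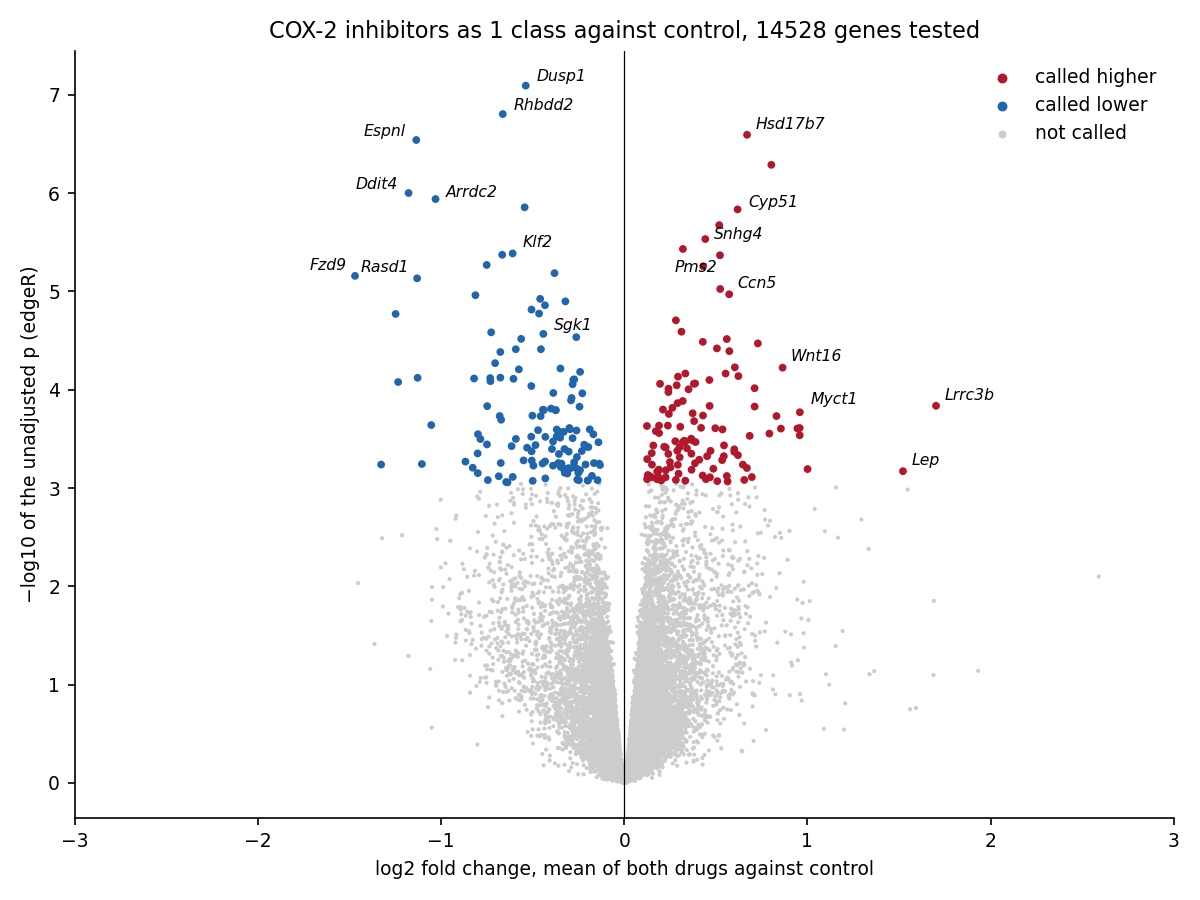
Each point is 1 of the 14528 genes tested, placed by the log2 fold change of the drug class against control (x axis) and by -log10 of its unadjusted edgeR p (y axis). Red points are the 123 called genes that rose and blue points the 134 that fell. Dusp1 has the smallest p, and most called genes lie within 1 log2 unit of 0.

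A class mean can be carried by 1 drug, so a stricter test asked for a difference from control with celecoxib and with rofecoxib, each in the same direction. By edgeR 0 of 14528 genes passed it after adjustment, with 908 (6.25%) at an unadjusted p under 0.05 and a lowest adjusted p of 0.109. DESeq2 called 23 genes by the same rule and limma voom 9. The 5 genes with the smallest p in edgeR were Rhbdd2, Dusp1, Ccn5, Msmo1 and Snhg4. Without celecoxib replicate 2, edgeR called 9 genes, and within replicates 5 to 8 alone it called 194. Complete separation was also counted, without a test: in 3 genes (0.0206%) all 16 drug libraries lay beyond all 8 controls. These were Dusp1 and Rps27rt, both below, and Fads1, above.

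Genes that glucocorticoids induce made up the clearest group on the lower side. Of 20 such genes tested, 8 fell (against 0.922% of all genes), 0 rose, and 19 were below 0, with a median log2 fold change of -0.44 against 0.02 over all genes, of which 44.8% were below 0. The mean level of the list was 8.06 ± 0.07 log2 CPM in control, 7.60 ± 0.21 with celecoxib and 7.48 ± 0.21 with rofecoxib (SD, n = 8 each), and all 16 drug libraries lay below all 8 controls. The list was drawn up with earlier results of these libraries known, so its direction is a description. Without control replicate 1, 2 or 6, in turn, 5 of its members were called, and without celecoxib replicate 2, 9 were. Replicates 1 to 4 alone gave 2 called members and replicates 5 to 8 alone gave 9, at class medians of -0.31 and -0.53.

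Dusp1 (ENSMUSG00000024190, chr17:26642333-26645666 on mm9), the phosphatase that switches off p38 and JNK MAP kinases, is itself induced by glucocorticoids and by immediate early signals. It lay at 164 to 207 CPM (median 182) in control, 118 to 161 (median 131) with celecoxib and 83.8 to 135 (median 123) with rofecoxib. No drug library reached the lowest control. The class log2 fold change was -0.54 (SE 0.07), at -0.45 with celecoxib and -0.62 with rofecoxib (edgeR quasi-likelihood test with Benjamini-Hochberg adjustment, adjusted p = 0.00105). It was -0.64 in replicates 1 to 4 and -0.44 in replicates 5 to 8.

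Ddit4 (ENSMUSG00000020108, chr10:59412221-59414720 on mm9), an inhibitor of mTORC1 that stress and glucocorticoids induce, changed more. Its level was 67.1 to 107 CPM (median 79.0) in control, 19.7 to 49.2 (median 28.6) with celecoxib and 22.9 to 71.1 (median 38.6) with rofecoxib. All 8 celecoxib libraries and 7 of 8 rofecoxib libraries lay below every control. Ddit4 fell by 1.18 (SE 0.18) on the log2 scale, at -1.36 with celecoxib and -1.0 with rofecoxib (edgeR adjusted p = 0.00237).

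Arrdc2 (ENSMUSG00000002910, chr8:73358852-73363821 on mm9), which encodes an arrestin-domain protein, was at 87.7 to 116 CPM (median 107) in control, 32.3 to 95.6 (median 53.1) with celecoxib and 28.3 to 58.6 (median 43.0) with rofecoxib. The celecoxib libraries were widely spread, and 7 of them with all 8 rofecoxib libraries were below every control. The class log2 fold change was -1.03 (SE 0.16, edgeR adjusted p = 0.00237), or -1.11 without celecoxib replicate 2 (edgeR adjusted p = 0.000261). Gadd45g, a stress-induced growth arrest gene, overlapped more with control, at 66.8 to 112 CPM (median 96.2) in control, 35.9 to 71.9 (median 54.9) with celecoxib and 49.0 to 82.7 (median 64.6) with rofecoxib. It fell by 0.67 on the log2 scale (SE 0.11, edgeR adjusted p = 0.00415), with 11 of 16 drug libraries below every control.

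The other 4 called members were Bcl6, Errfi1 and, named here after their values were seen, Sgk1 and Fkbp5. Sgk1, a kinase that regulates ion channels and transporters, was unusually even among controls, at 181 to 207 CPM (median 195) in control, 109 to 189.6 (median 147) with celecoxib and 118 to 169 (median 132) with rofecoxib. It fell by 0.44 on the log2 scale (SE 0.09, edgeR adjusted p = 0.0119), and 14 of 16 drug libraries lay below every control. Fkbp5, whose product binds and restrains the receptor for glucocorticoids, fell by 0.64 (SE 0.17, edgeR adjusted p = 0.0493). That call was kept when 1 library was left out in 4 of 24 cases, namely celecoxib replicate 2, rofecoxib replicate 2 or 3 or control replicate 3, and the adjusted p reached 0.105 in the other 20. Bcl6, a transcriptional repressor, fell by 0.44 (SE 0.10, edgeR adjusted p = 0.0258), a call lost without control replicate 1, 2 or 6. Members that did not pass included Tsc22d3, the glucocorticoid-induced leucine zipper, at -0.72 (edgeR adjusted p = 0.0799) and Zbtb16 at -0.66 (edgeR adjusted p = 0.0867).

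**Figure D2:**
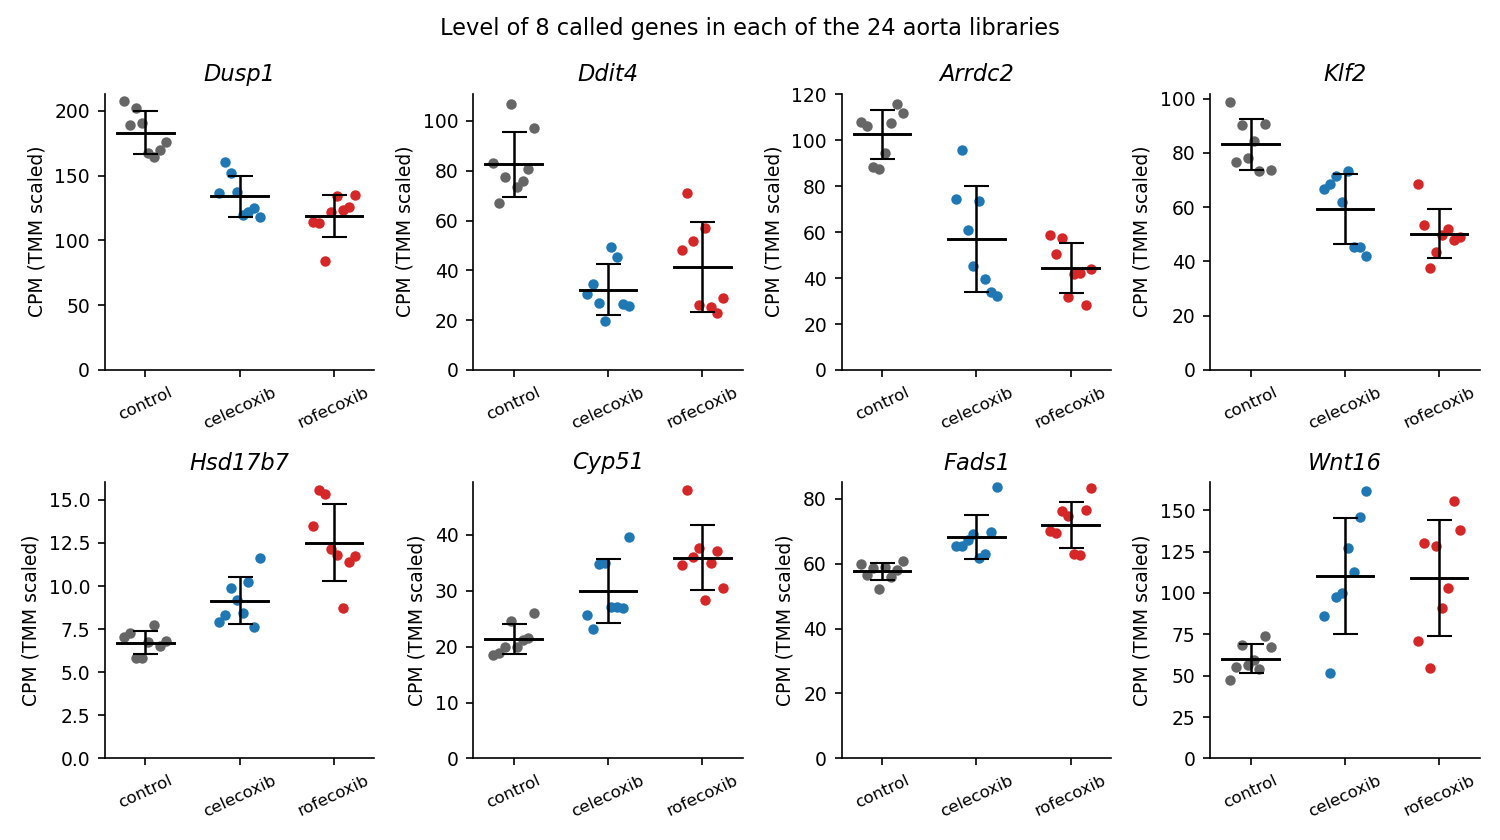
TMM-scaled CPM (y axis, from 0) of 8 called genes in each of the 24 libraries, grouped as control (grey), celecoxib (blue) and rofecoxib (red). Each point is a library, the long bar is the group mean and the short bars are ± 1 SD over 8 libraries. Dusp1 and Fads1 show no overlap between drug and control libraries, while Wnt16 has low libraries in both drug groups.

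The promoters of 4 fallen genes are shown because they hold a full cyclic AMP or glucocorticoid response element, the letters that CREB and the glucocorticoid receptor are known to bind. Promoters were taken from RefSeq on GRCm38.p6, 250 bases before to 50 after each gene's start, and printed 5′ to 3′ on the gene's strand. Capitals mark the full cyclic AMP response element TGACGTCA in Dusp1 (chr17:26508423-26508722, minus strand), Errfi1 (chr4:150854820-150855119, plus strand) and Btg2 (chr1:134079106-134079405, minus strand). In Sgk1 (chr10:21993640-21993939, plus strand) they mark the palindromic glucocorticoid response element.
Dusp1: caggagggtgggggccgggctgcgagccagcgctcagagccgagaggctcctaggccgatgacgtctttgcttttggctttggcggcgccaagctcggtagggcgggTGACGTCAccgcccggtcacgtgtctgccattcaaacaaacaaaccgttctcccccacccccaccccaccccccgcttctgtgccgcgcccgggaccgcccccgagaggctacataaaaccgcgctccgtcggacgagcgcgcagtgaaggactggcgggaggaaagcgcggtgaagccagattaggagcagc
Errfi1: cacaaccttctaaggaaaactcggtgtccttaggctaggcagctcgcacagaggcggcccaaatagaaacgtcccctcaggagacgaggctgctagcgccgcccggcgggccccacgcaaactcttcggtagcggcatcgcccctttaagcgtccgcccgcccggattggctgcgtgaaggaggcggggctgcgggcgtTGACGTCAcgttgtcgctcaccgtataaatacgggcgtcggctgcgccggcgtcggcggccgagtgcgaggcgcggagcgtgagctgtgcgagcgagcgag
Btg2: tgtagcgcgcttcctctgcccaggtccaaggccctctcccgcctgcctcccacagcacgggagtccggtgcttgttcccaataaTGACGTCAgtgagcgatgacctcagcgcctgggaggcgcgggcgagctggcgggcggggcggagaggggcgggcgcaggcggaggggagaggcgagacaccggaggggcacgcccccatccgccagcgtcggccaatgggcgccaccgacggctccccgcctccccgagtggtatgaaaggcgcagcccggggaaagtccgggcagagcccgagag
Sgk1: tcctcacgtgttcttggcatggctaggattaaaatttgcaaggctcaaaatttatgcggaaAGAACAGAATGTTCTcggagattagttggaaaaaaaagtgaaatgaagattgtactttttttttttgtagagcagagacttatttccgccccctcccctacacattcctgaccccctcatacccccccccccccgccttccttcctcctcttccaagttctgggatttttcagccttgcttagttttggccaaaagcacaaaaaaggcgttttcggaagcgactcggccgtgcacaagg

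The cyclic AMP element starts 143 bases before the annotated start of Dusp1, 51 before that of Errfi1 and 166 before that of Btg2, and the glucocorticoid element 189 before that of Sgk1. A promoter was at hand for 105 of the 134 fallen genes, 99 of the 123 risen genes and 10845 of the genes tested. TGACGTCA, searched on both strands, was in the promoters of 5 fallen genes (4.76%), the 3 above with Arl4d and Tra2a, of 3 risen genes (3.03%) and of 3.45% of tested genes. It stood in 2.03% of all 27025 genes with a promoter of this length in the table. Counted by promoter, of which some genes have more than 1, that was 1.79% of all 32851. The glucocorticoid response element was in 3 of all promoters and, among tested genes, in that of Sgk1 alone. CACGTG, an E-box, was in 18.1% of fallen, 15.2% of risen and 11.4% of tested genes. TGTTTAC, a FOX motif, was in 2.86% of fallen and 3.09% of tested genes. TCACNCCAC, a sterol response element, was in 1.44% of tested genes and in 0 of the 7 risen cholesterol genes with a promoter. A match is a string of letters and says nothing of binding.

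Errfi1 and Btg2 joined Dusp1 among genes of rapid signalling. Errfi1, a feedback inhibitor of the EGF receptor, was at 379.7 to 525 CPM (median 435) in control, 164 to 639 (median 244) with celecoxib and 171 to 379.6 (median 203) with rofecoxib. All drug libraries but 1 lay below every control, and that 1, celecoxib replicate 2 at 639 CPM, was above every control. The class log2 fold change of Errfi1 was -0.78 (SE 0.19, edgeR adjusted p = 0.0339), or -0.93 without that library (edgeR adjusted p = 0.000798). The call of Errfi1 was lost without celecoxib replicate 7, rofecoxib replicate 7 or control replicate 1, 2, 4, 5, 6 or 7, in turn, at edgeR adjusted p of 0.0509 to 0.0728. Btg2, an antiproliferative gene, fell by 0.60 on the log2 scale (SE 0.13, edgeR adjusted p = 0.0190), or by 0.68 without celecoxib replicate 2. Without control replicate 1 or 2 its adjusted p was 0.0583 or 0.0606.

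Most members of the wider lists of this signalling were not called. Of 26 immediate early genes tested, 3 fell, Dusp1, Klf2 and Btg2 (11.5%, against 0.922% of all genes), 0 rose, and 22 were below 0 (against 44.8% of all genes), at a median of -0.27. The AP-1 gene Fos was at -0.13 (edgeR adjusted p = 0.784) and Egr1 at -0.50 (edgeR adjusted p = 0.153). Zfp36, whose product degrades cytokine transcripts, missed the threshold at -0.76 (edgeR adjusted p = 0.0671).
Of 17 feedback regulators of MAP kinases, 3 fell, Dusp1, Errfi1 and Spry4 (against 0.922% of all genes), and 1 rose, Dusp10 (against 0.847%). The list's median was -0.04 and turned sign with library size scaling. Without control replicate 1, 2 or 6, 1 of the 17 was called, and without celecoxib replicate 7, rofecoxib replicate 7 or control replicate 4, 5 or 7, 2 were. Spry4, an inhibitor of receptor tyrosine kinase signalling, fell by 0.67 on the log2 scale (SE 0.15, edgeR adjusted p = 0.0294). Dusp10, another phosphatase of p38 and JNK, was at 6.88 to 13.9 CPM (median 10.5) in control, 13.9 to 23.5 (median 18.1) with celecoxib and 9.30 to 23.8 (median 14.3) with rofecoxib. It rose by 0.67 (SE 0.17, edgeR adjusted p = 0.0437), a call kept in 7 of the 24 fits without 1 library and lost at adjusted p up to 0.101 in the others. So the phosphatases Dusp1 and Dusp10 were called in opposite directions.

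Targets of FOXO transcription factors, which insulin and growth factor signalling hold inactive, also lay mostly lower. Of 16 tested, 5 fell (against 0.922% of all genes) and 0 rose, 15 were below 0 (against 44.8% of all genes) and the median was -0.37. Ddit4 and Bcl6 counted in this list too. Depp1, a FOXO-induced gene of autophagy control, was at 17.8 to 28.1 CPM (median 23.2) in control, 7.54 to 18.8 (median 12.0) with celecoxib and 8.94 to 23.1 (median 16.9) with rofecoxib and fell by 0.73 on the log2 scale (SE 0.15, edgeR adjusted p = 0.0191). Txnip, which restrains glucose uptake and binds thioredoxin, was at 533 to 620.5 CPM (median 578) in control, 332 to 485 (median 445) with celecoxib and 377 to 634 (median 442) with rofecoxib. All celecoxib libraries and 6 of 8 rofecoxib libraries of Txnip lay below every control, 1 rofecoxib library lay above them, and it fell by 0.35 (SE 0.08, edgeR adjusted p = 0.0326). Sesn3, a sestrin, fell by 0.45 (SE 0.11, edgeR adjusted p = 0.0424). Without control replicate 1, 2 or 6, in turn, 2 of the 16 members were called, and without control replicate 4, 5 or 7, 3 were.

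On the higher side, genes of cholesterol synthesis and uptake formed the largest block. Of 22 tested, 11 rose (against 0.847% of all genes), 0 fell and 19 were above 0, with a median log2 fold change of 0.34 for the class, 0.23 with celecoxib and 0.54 with rofecoxib. The list level was 4.21 ± 0.08 log2 CPM in control, 4.40 ± 0.15 with celecoxib and 4.67 ± 0.18 with rofecoxib (SD, n = 8 each), and 12 of 16 drug libraries lay above every control. This list too was drawn up with earlier results known. Fits without 1 library had 8 to 11 called members. Replicates 1 to 4 alone gave 1 called member and replicates 5 to 8 alone gave 5, at class medians of 0.34 in both.

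Cyp51 (ENSMUSG00000001467, chr5:4080943-4104948 on mm9), lanosterol demethylase, was at 18.5 to 26 CPM (median 20.6) in control, 23.2 to 39.6 (median 27.1) with celecoxib and 28.4 to 48.0 (median 35.5) with rofecoxib. It rose by 0.62 (SE 0.10, edgeR adjusted p = 0.00237), and 6 celecoxib and 8 rofecoxib libraries were above every control.

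Hsd17b7, which reduces the 3-keto group of sterol intermediates, had the smallest p of the risen genes. It was at 5.82 to 7.76 CPM (median 6.78) in control, 7.62 to 11.6 (median 8.81) with celecoxib and 8.73 to 15.6 (median 12.0) with rofecoxib, and it rose by 0.67 on the log2 scale (SE 0.09, edgeR adjusted p = 0.00105). Msmo1, the C4-methyl sterol oxidase, was at 23.7 to 34.2 CPM (median 30.2) in control, 31.9 to 51.5 (median 38.6) with celecoxib and 38.7 to 54.2 (median 43.2) with rofecoxib and rose by 0.52 (SE 0.08, edgeR adjusted p = 0.00308). In Hsd17b7 and in Msmo1 all rofecoxib libraries and 7 of 8 celecoxib libraries lay above every control.

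Another 7 risen members, named after their values were seen where the naming rule did not choose them, were Idi1 (0.56) and Fdps (0.35) of isoprenoid synthesis, Sqle (0.52) and Lss (0.43), which form lanosterol from squalene, Sc5d (0.52), Stard4 (0.43), a sterol carrier, and Insig1 (0.54), which holds SREBP in the endoplasmic reticulum. Each value is the class log2 fold change. The calls of Idi1, Sqle, Sc5d and Stard4 were kept without any 1 library, that of Fdps in 22 of 24 fits, that of Lss in 19 and that of Insig1 in 12. Srebf2, which encodes the factor that drives the pathway, was at -0.02 (edgeR adjusted p = 0.907).

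**Figure D3:**
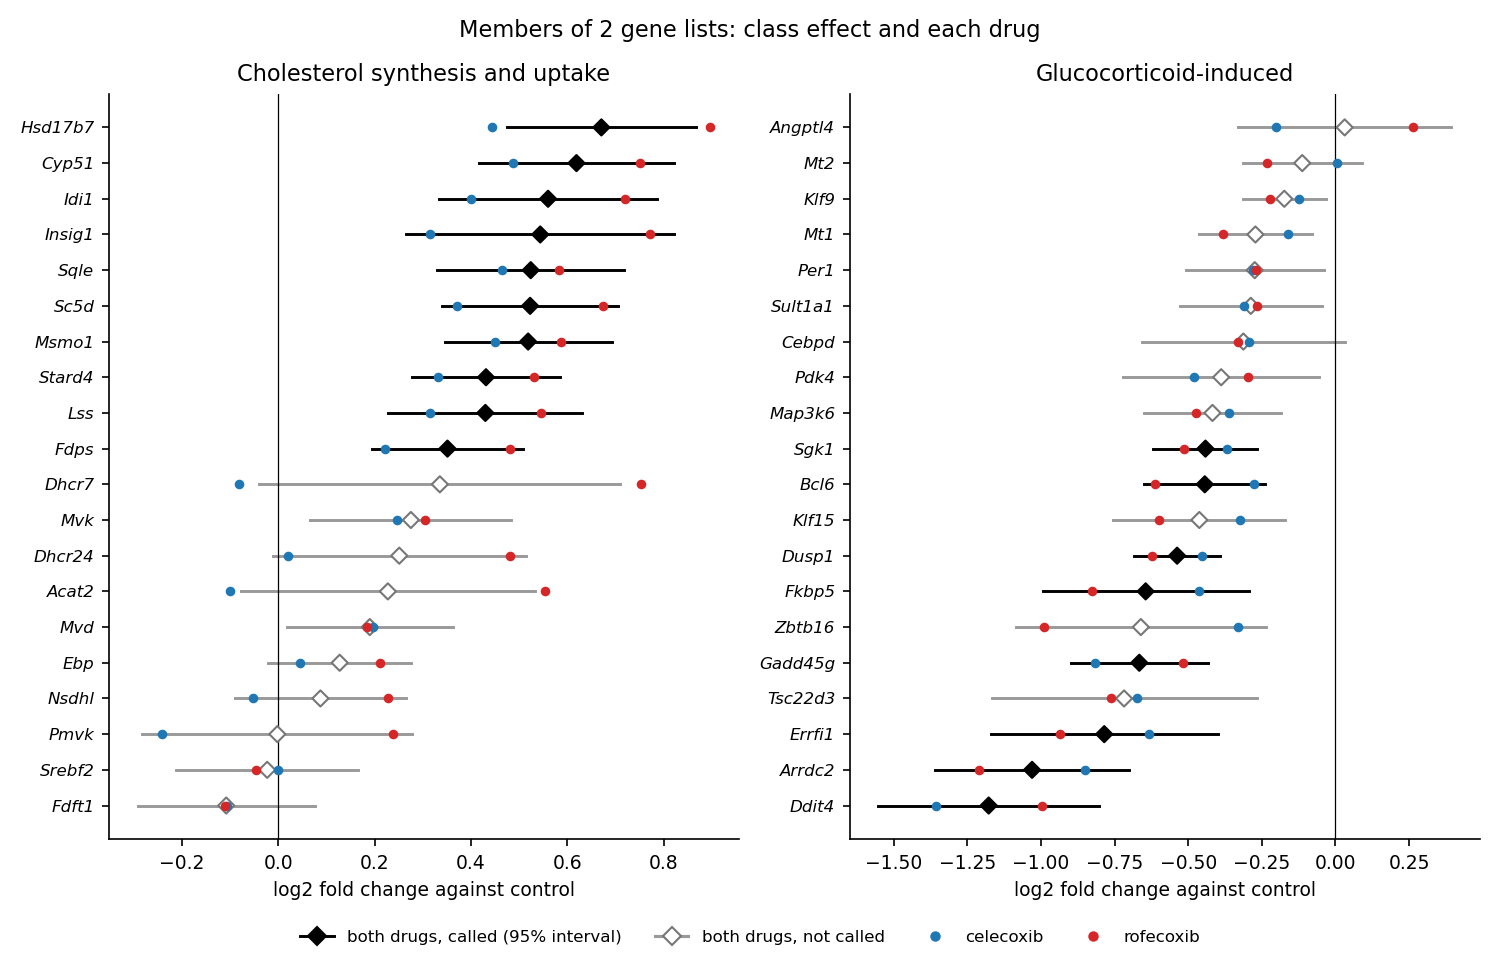
Log2 fold changes against control (x axis) of 20 of the 22 cholesterol genes (left) and 20 glucocorticoid-induced genes (right) tested. Diamonds are the class effect with its 95% interval, black where called and open where not, and dots are celecoxib (blue) and rofecoxib (red). For the called cholesterol genes plotted the rofecoxib dot lies to the right of the celecoxib dot, and Angptl4 is the 1 glucocorticoid-induced gene with a diamond above 0.

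Fatty acid synthesis is driven by the related factor SREBP-1c. Of 16 genes of fatty acid and triglyceride synthesis, 0 were called (against 1.77% of all genes). Their median was 0.03, at -0.38 with celecoxib and 0.41 with rofecoxib. Over the other settings and the fits without 1 library the median ran from -0.16 to 0.19, and 1 member was called without celecoxib replicate 2, rofecoxib replicate 3 or control replicate 3. General adipocyte markers, which move in bulk tissue with the amount of fat, likewise stood at a median of -0.32 with celecoxib and 0.80 with rofecoxib, with mean levels of 6.39 ± 0.62 log2 CPM in control, 6.20 ± 0.50 with celecoxib and 7.18 ± 0.61 with rofecoxib (SD, n = 8 each). With the adipocyte, Schwann cell and macrophage levels as covariates 723 genes were called, among them 253 of the 257 class calls. With brown adipocyte and skeletal muscle levels 261 were called, among them 218 of the 257. All these levels but skeletal muscle lay on opposite sides of control with the 2 drugs, and so partly cancel in a class mean. These fits therefore cannot say what part tissue content had in the class calls.

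Fads1 (ENSMUSG00000010663, chr19:10257176-10271562 on mm9), the delta-5 desaturase that makes arachidonic acid, the substrate of cyclooxygenases, separated the groups completely at a small size. It was at 52.1 to 60.7 CPM (median 58.3) in control, 61.6 to 83.5 (median 66.4) with celecoxib and 62.7 to 83.3 (median 72.3) with rofecoxib. Every drug library was above every control. Fads1 rose by 0.28 on the log2 scale (SE 0.05, edgeR adjusted p = 0.00953), and it was 0.30 in replicates 1 to 4 and 0.27 in replicates 5 to 8.

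Of 12 genes of prostanoid synthesis and 12 of prostanoid receptors and turnover, 0 were called (against 1.77% of all genes). At an unadjusted p under 0.05, 3 synthesis genes were higher and 2 lower, and 1 receptor or turnover gene was higher and 0 lower. Of all genes, 10.6% were higher and 9.55% lower at that level. Ptgs2, the drugs' target, lay at 79.9 to 194 CPM (median 128) in control, 62.2 to 199 (median 109) with celecoxib and 50.7 to 133 (median 79.2) with rofecoxib, a class log2 fold change of -0.51 (SE 0.19) that did not pass (edgeR adjusted p = 0.140). The drug and control libraries overlapped widely. Without celecoxib replicate 2, Ptgs2 was at -0.60 and came nearer to the threshold, but did not pass it (edgeR adjusted p = 0.0513). Ptgs1, the constitutive cyclooxygenase, was at 0.20 (edgeR adjusted p = 0.464) and Ptgis, prostacyclin synthase, at -0.22 (edgeR adjusted p = 0.158). Akr1b3, an aldose reductase with prostaglandin F synthase activity, came nearest at 0.22 (edgeR adjusted p = 0.0530), and it was called without celecoxib replicate 2 (edgeR adjusted p = 0.0456), without rofecoxib replicate 1, 2 or 3 and in replicates 5 to 8 alone.

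Genes that IL-1 and NF-kB are known to induce lay mostly lower, but none passed the test. Of 33 such genes, 0 were called by edgeR (against 1.77% of all genes) and 29 were below 0 (against 44.8% of all genes). At an unadjusted p under 0.05, 11 were lower (against 9.55% of all genes). The median was -0.36 (-0.48 with celecoxib, -0.33 with rofecoxib). Cxcl2, a neutrophil chemokine, ranged over 7.49 to 94.8 CPM (median 16.4) in control, 2.24 to 29.3 (median 6.21) with celecoxib and 2.08 to 38.1 (median 9.77) with rofecoxib, a class effect on the log2 scale at -1.45 (SE 0.51), not called (edgeR adjusted p = 0.123). Il6 was at -0.92 (SE 0.42, edgeR adjusted p = 0.217) and Cxcl1 at -0.84 (SE 0.46, edgeR adjusted p = 0.304). The spread among controls was as wide as the difference: Il6 ran from 25.8 to 114 CPM in control. Neutrophil markers, the other cell list that such chemokines bear on, had a mean level of 1.66 ± 0.55 log2 CPM in control, 0.917 ± 0.540 with celecoxib and 2.03 ± 0.84 with rofecoxib (SD, n = 8 each), and their part in these values was not tested. Interferon-stimulated genes, 0 of 26 called (against 1.77% of all genes), had a median of -0.25. Cebpb, an acute-phase transcription factor outside these lists that was named after its values were seen, did fall, from 76.1 to 126 CPM (median 87.9) in control to 33.6 to 71.0 (median 59.6) with celecoxib and 47.2 to 91.1 (median 62.2) with rofecoxib. Its class log2 fold change was -0.68 (SE 0.14, edgeR adjusted p = 0.0190). The call of Cebpb was lost without control replicate 1 or 2, at adjusted p of 0.0575 to 0.0583.

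Among genes of the vessel wall, Klf2 (ENSMUSG00000055148, chr8:74842730-74845757 on mm9), a flow-induced transcription factor that keeps endothelium quiescent, was at 73.2 to 98.9 CPM (median 81.2) in control, 42.0 to 73.4 (median 64.3) with celecoxib and 37.6 to 68.7 (median 49.4) with rofecoxib. All rofecoxib libraries and 7 of 8 celecoxib libraries lay below every control. Klf2 fell by 0.61 on the log2 scale (SE 0.10, edgeR adjusted p = 0.00415). Acvrl1, the endothelial BMP receptor ALK1, named after its values were seen, also fell, by 0.43 (SE 0.08, edgeR adjusted p = 0.00774), as did Ace, angiotensin-converting enzyme, by 0.40 (SE 0.09, edgeR adjusted p = 0.0258). The call of Ace was lost without control replicate 1, 2, 4 or 6. In contrast Nos3, endothelial nitric oxide synthase, was at 0.18 (edgeR adjusted p = 0.581) and Thbd, thrombomodulin, at -0.02 (edgeR adjusted p = 0.949).

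Endothelial markers as a list gave 0 called of 19 (against 1.77% of all genes), at a median of 0.18. At an unadjusted p under 0.05, 5 were higher (against 10.6% of all genes). Without celecoxib replicate 2, 3 of them were called, Tek among them, without celecoxib replicate 3 or rofecoxib replicate 8, 2 were, and without celecoxib replicate 5, rofecoxib replicate 3 or control replicate 3, 1 was. Myct1 and Clec14a, endothelial genes outside the list, rose, Myct1 from 2.91 to 6.09 CPM (median 4.72) in control to 4.19 to 13.7 (median 8.36) with celecoxib and 5.51 to 15.5 (median 7.94) with rofecoxib. The class log2 fold change of Myct1 was 0.96 (SE 0.22) and that of Clec14a 0.83 (SE 0.19, edgeR adjusted p = 0.0268 and 0.0272). Both calls were lost without control replicate 1, 2 or 6, and that of Clec14a also without control replicate 7. Pecam1, an endothelial adhesion molecule, was at 0.16 (edgeR adjusted p = 0.295).

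Wnt receptors went both ways. Fzd9 was a low gene and went from 2.53 to 7.18 CPM (median 4.57) in control to 0.690 to 4.23 (median 1.69) with celecoxib and 0.717 to 3.02 (median 1.27) with rofecoxib. It fell by 1.47 on the log2 scale (SE 0.26, edgeR adjusted p = 0.00532), the largest fall among called genes of at least 1 CPM. Fzd7 lay at 114 to 142 CPM (median 130.4) in control, 163 to 234 (median 177) with celecoxib and 118 to 236 (median 175) with rofecoxib and rose by 0.50 on the log2 scale (SE 0.12, edgeR adjusted p = 0.0318), a call lost without control replicate 1, 2, 6 or 7. These were the 2 called of 24 Wnt genes on the list (against 1.77% of all genes), whose median was 0.08. Without celecoxib replicate 2, 4 were called, and without control replicate 1, 2, 6 or 7, 1 was.
Wnt16, a Wnt ligand that was not on that list, was at 47.2 to 73.7 CPM (median 57.9) in control, 51.7 to 161 (median 106) with celecoxib and 54.8 to 155 (median 116) with rofecoxib. It rose by 0.86 (SE 0.18, edgeR adjusted p = 0.0188), with 13 of 16 drug libraries above every control. Without control replicate 1 or 2 its adjusted p was 0.0506 or 0.0504. Ccn5 (Wisp2 in the table), a Wnt-induced matricellular gene of smooth muscle, was at 121 to 197 CPM (median 155) in control, 184 to 310.0 (median 231) with celecoxib and 195 to 298 (median 215) with rofecoxib and rose by 0.57 (SE 0.10, edgeR adjusted p = 0.00691), by 0.58 with celecoxib and 0.56 with rofecoxib.

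Most matrix genes lay slightly lower, and few passed the test. Of 25 tested, 2 fell (against 0.922% of all genes), 0 rose and 23 were below 0, at a median of -0.18. At an unadjusted p under 0.05, 14 were lower, against 9.55% of all genes. Fbln5, fibulin-5 of elastic fibres, was at 414 to 605 CPM (median 515) in control, 367 to 647 (median 408) with celecoxib and 257 to 407 (median 315) with rofecoxib and fell by 0.45 on the log2 scale (SE 0.09, edgeR adjusted p = 0.0137). Col1a2, a chain of type I collagen, fell by 0.32 (SE 0.08, edgeR adjusted p = 0.0460), a call kept in 6 of the 24 fits without 1 library. Celecoxib replicate 2 was the highest of all 24 libraries for both. Without it Fbln5 fell by 0.51 and Col1a2 by 0.37 (edgeR adjusted p = 0.000798 and 0.00555), and 8 matrix genes were called, while without control replicate 3, 5 were. Leaving out any other library but celecoxib replicate 3, rofecoxib replicate 2, 3 or 8 or control replicate 8 left 1. Of 12 adventitial fibroblast markers 0 were called (against 1.77% of all genes). Their median was 0.10, at -0.06 in replicates 1 to 4 and 0.21 in replicates 5 to 8.

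Several called genes with the smallest p or the largest change belonged to no list. Rhbdd2, a rhomboid-like membrane protein gene, was at 59.8 to 85.3 CPM (median 64.9) in control, 32.3 to 60.9 (median 43.2) with celecoxib and 35.0 to 47.7 (median 40.6) with rofecoxib and fell by 0.66 on the log2 scale (SE 0.09, edgeR adjusted p = 0.00105). Rasd1, a Ras-like gene first found as dexamethasone-induced, fell by 1.13 (SE 0.20, edgeR adjusted p = 0.00535), Zfp697 by 0.75, Slc25a33, a mitochondrial pyrimidine nucleotide carrier, by 0.81, Gramd1c by 0.54 and Cracr2b by 0.38. Bcl2l1, which encodes the survival factor Bcl-xL and was named after its values were seen, fell by 0.73. These 7 calls were kept without any 1 library. Without celecoxib replicate 2, Slc25a33 fell by 0.90, Bcl2l1 by 0.82 and Gramd1c by 0.56.

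Rising outside the lists were Snhg4, a host gene of small nucleolar RNAs, Tubb5, a β-tubulin, and Malat1, a nuclear long noncoding RNA. Snhg4 was at 5.61 to 7.25 CPM (median 6.28) in control, 6.26 to 9.97 (median 8.07) with celecoxib and 8.03 to 9.67 (median 8.82) with rofecoxib, a rise of 0.44 on the log2 scale (SE 0.07, edgeR adjusted p = 0.00388). Malat1, named after its values were seen, rose by 0.57 (SE 0.11, edgeR adjusted p = 0.0140). Pms2, a mismatch repair gene, was at 8.50 to 10.8 CPM (median 9.05) in control, 10.8 to 12.9 (median 11.9) with celecoxib and 10.6 to 12.7 (median 11.5) with rofecoxib and rose by 0.32 (SE 0.05, edgeR adjusted p = 0.00415). Pms2 was the 1 called of 8 mismatch repair genes, against 1.77% of all genes. Cma1, mast cell chymase, rose by 0.95, a call lost without control replicate 1, 2, 4, 5, 6 or 7. Rps27rt was at 2.78 to 3.68 CPM (median 2.99) in control, 1.16 to 2.43 (median 1.93) with celecoxib and 0.886 to 2.34 (median 2.0) with rofecoxib and fell by 0.73 (SE 0.15). It and Rps2-ps10 (-1.23) are near copies of ribosomal protein genes, as tubulin genes are of each other, and since the sources used here do not say how the counting split their reads, these values are uncertain.

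The direct difference between the drugs, celecoxib minus rofecoxib, used the control libraries for the shared estimate of spread alone and compared unequal doses. It was called in 710 of 14528 genes (4.89%) and in 12 of the 257 class genes (4.67%). An unadjusted p under 0.05 was reached by 28.8% of the class genes and 23.0% of all. The 12 were Hsd17b7, Espnl, Fbln5, Lep and, named after their values were seen, Rab3il1, Mrpl27, Gm13212, Bicd1, Has3, Sesn3, Mxra8 and Ppp1r3b. The count of 710 rested on a few libraries: by edgeR it was 0 without celecoxib replicate 2 or 3 or rofecoxib replicate 2, 3 or 7, and 1 to 3 without celecoxib replicate 4 or 5 or rofecoxib replicate 4. It was 240 without rofecoxib replicate 1, 447 without control replicate 2, 363 without control replicate 6 and 1997 without rofecoxib replicate 8.

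The interval of that difference spanned 0 for 4 of the lead genes. It was 0.17 (95% interval -0.0016 to 0.34) for Dusp1, -0.36 (95% interval -0.81 to 0.09) for Ddit4, 0.02 (95% interval -0.39 to 0.42) for Wnt16 and 0.02 (95% interval -0.22 to 0.26) for Ccn5, on the log2 scale. Lep, the adipocyte hormone leptin, was at 0.572 to 7.74 CPM (median 2.29) in control, 2.09 to 9.21 (median 4.97) with celecoxib and 3.23 to 29.7 (median 14.4) with rofecoxib. Its class rise of 1.52 (SE 0.39, edgeR adjusted p = 0.0449) was kept in 8 of 24 fits without 1 library, and its log2 fold change was 0.78 with celecoxib and 2.26 with rofecoxib.

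Lists that a class mean hides are those in which the drugs lay on opposite sides of control. Neutrophil markers had a median of -0.81 with celecoxib and 0.52 with rofecoxib, Schwann cell markers -0.65 and 1.12, brown adipocyte markers -0.35 and 0.95, fatty acid oxidation genes -0.17 and 0.69, respiratory chain genes -0.10 and 0.41 and macrophage markers -0.20 and 0.33. Each of these 6 lists had 0 called members for the class, against 1.77% of all genes. Schwann cell markers turned to a class median of -0.14 without rofecoxib replicate 5, and neutrophil markers to 0.05 without control replicate 8. The skeletal muscle median of -0.93 turned to 0.45 without control replicate 3. Only 1 of 11 T, B and NK cell markers passed the filter on low counts, so these cells were barely measured.

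**Figure D4:**
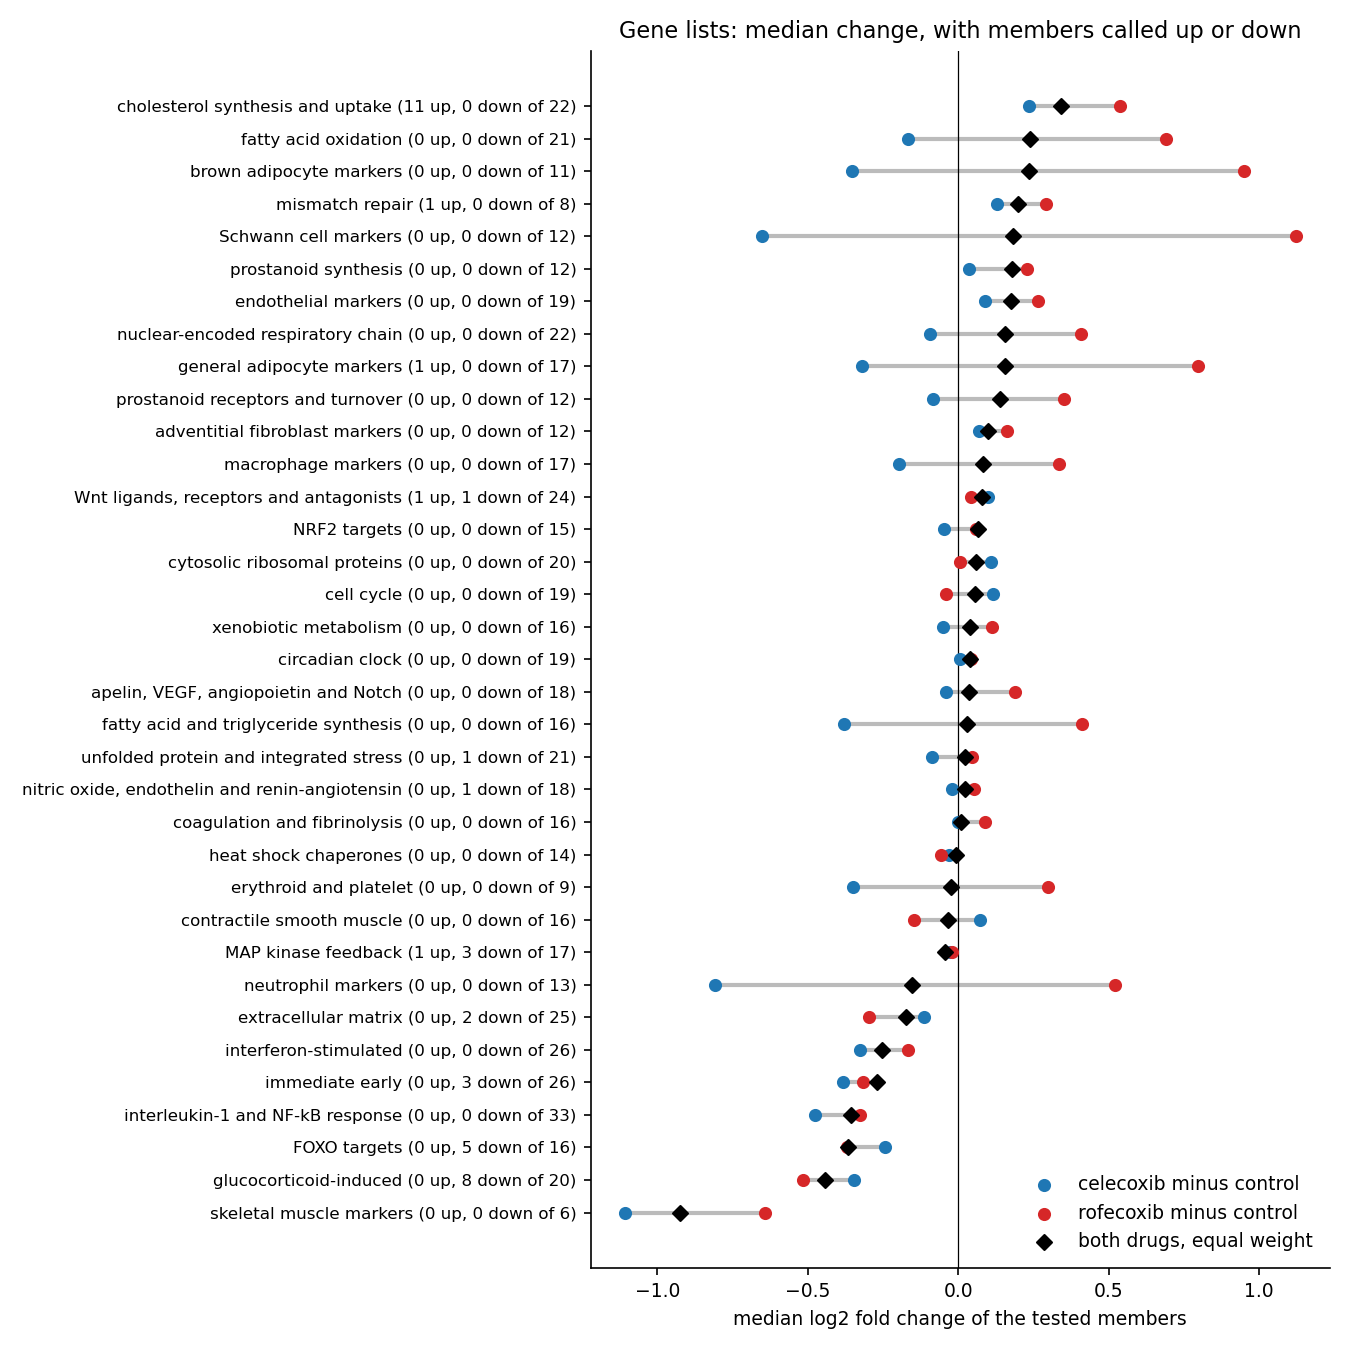
Median log2 fold change against control (x axis) of the tested members of 35 gene lists, for celecoxib (blue), rofecoxib (red) and the class (black diamonds). The labels give how many tested members were called up and down. The cholesterol list at the top and the FOXO and glucocorticoid lists near the bottom have both drugs on 1 side of 0, while Schwann cell, neutrophil and adipocyte markers are split.

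How far the count of 257 rested on single libraries was examined by leaving out each of the 24 in turn. The count ranged from 50 to 538. It moved by more than 1.5 times without celecoxib replicate 2 (538), 7 (141) or 8 (142), rofecoxib replicate 4 (168) or 7 (160), and control replicate 1 (56), 2 (50), 4 (143), 5 (107), 6 (72) or 7 (100). The call was kept in all 24 fits by 43 genes, 17 higher and 26 lower, and 40 of these 43 were also called under each of 11 other settings that used all 24 libraries. Within replicates 1 to 4 alone 5 genes were called and within replicates 5 to 8 alone 601, a difference in the libraries that the labels do not explain.

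**Figure D5:**
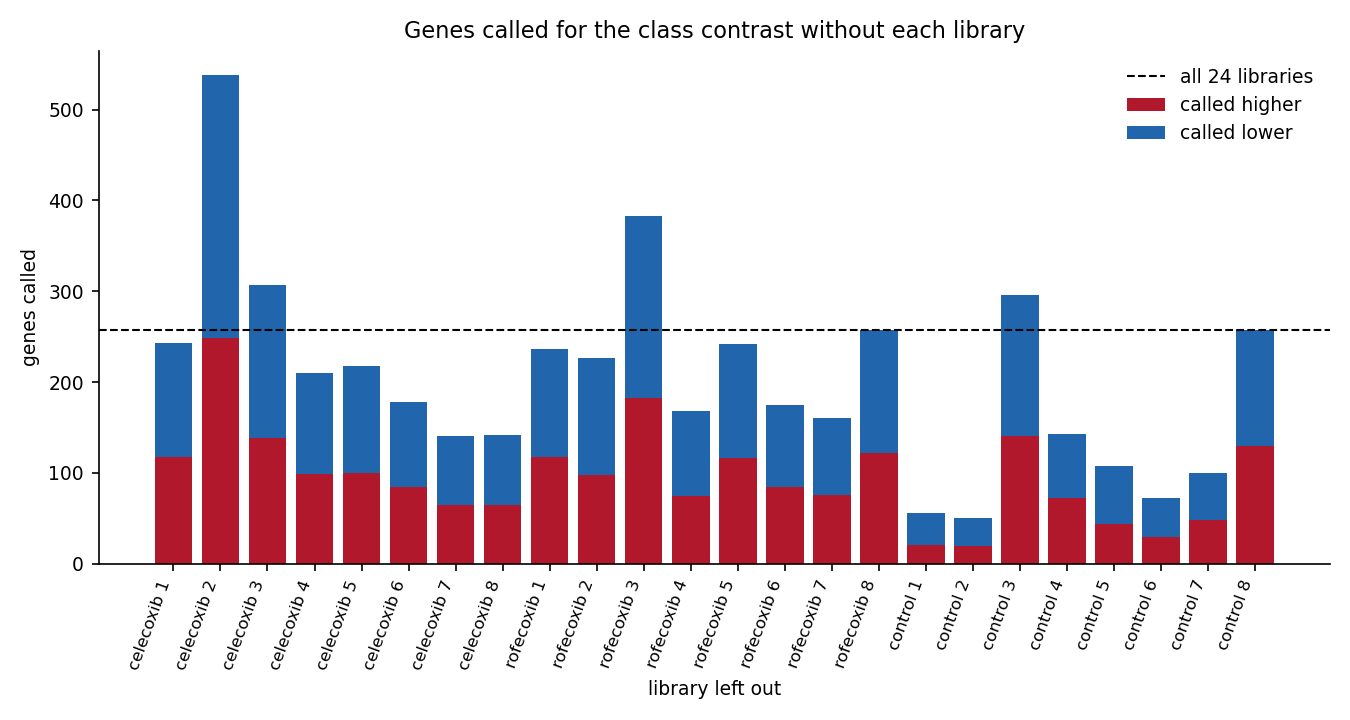
Number of genes called for the class against control (y axis, from 0) when the library named on the x axis is left out, split into higher (red) and lower (blue), with the count from all 24 libraries as a dashed line. The bar without celecoxib replicate 2 is the tallest at 538, and those without control replicates 1 and 2 are the lowest at 56 and 50.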

How the data were processed

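Poly(A)-selected RNA of 24 aortas was sequenced from TruSeq libraries amplified for 13 PCR cycles and constructed over 3 days, per the labels' protocols. No label ties a library to its day. A single table of raw read counts per gene, made by the authors, was deposited. The submitters' processing notes list CASAVA 1.8.1, STAR 2.5.1b and mm9. Counter, annotation and strand setting: not given in the sources used here. Overlapping, antisense and near-identical genes may therefore share reads. Library totals differed by 0.145%, and the labels do not say whether they were made alike before deposit.

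Groups and replicate numbers came from the sample titles. Counts were analysed in R 4.3.3 using edgeR 4.0.16, after its default filter (14528 genes) and TMM scaling. All 24 libraries entered a quasi-likelihood test that fitted a mean for each group. The contrast weighted each drug by 0.5 against control, and two-sided p-values were adjusted by Benjamini-Hochberg with a threshold of 0.05. The common biological coefficient of variation was 19.6%. CPM are TMM-scaled, and list levels are mean log2 CPM with a prior count of 2. The both-drug test took the larger of the p-values of the 2 drugs where the signs matched. Alternatives were other scalings and filters, DESeq2 1.42.0, limma 3.58.1 voom with sample weights, both drugs as 1 group, the replicate number as a block, replicates 1 to 4 and 5 to 8 as a term or alone, marker levels as covariates, and each library left out. Named genes were the 12 largest rises and 12 largest falls with a mean of at least 1 CPM, the 12 smallest p in each direction, the 5 smallest p of the both-drug test, up to 4 called members of each list (otherwise up to 2 as values) and fixed genes. Some of these genes are not reported here. The class, the 36 lists (623 symbols, all matched) and the tests were chosen with earlier results of these data known. On counts simulated from these libraries for the class comparison (14440 genes), the test recovered 48% of the genes set to a 1.25-fold change, 84% at 1.5-fold, 92% at 2-fold and 98% at 3-fold, and it made 7 false calls. No 2 libraries of a group agreed within sampling noise (lowest chi-square per degree of freedom 8.77). Gene positions are those of the table on mm9, and promoters are from RefSeq on GRCm38.p6. Motifs searched on both strands were the cyclic AMP response element, a sterol response element, a FOX motif, an E-box and the palindromic glucocorticoid response element.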

Additional observations from a re-analysis of the deposited data

Results flagged for a closer look

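Among the groups of 8 libraries examined for the named genes, 330 in all, 39 held 1 library whose gap to the next exceeded Dixon's 95% critical share of the group's range. Chance gives about 1 in 20 groups for independent, normally distributed values. CPM of genes measured in the same libraries need not be so, and the count of 39 was not tested against chance. All values in this paragraph are TMM-scaled CPM of that library. Celecoxib replicate 2 was the highest of its group for Gramd1c (7.59), Slc25a33 (21.1), Fbln5 (647), Btg2 (177), Arc (8.18), Errfi1 (639) and Col1a2 (3233), genes that were lower with the class. Rofecoxib replicate 3 was lowest for Dusp1 (83.8) and highest for Fzd9 (3.02) and Arc (6.36). Rofecoxib replicate 2 was highest for Cyp51 (48.0), Sqle (55.1) and Errfi1 (379.6), and celecoxib replicate 8 for Fads1 (83.5).

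Celecoxib replicate 6 was highest for Depp1 (18.8), Cxcl2 (29.3) and Cxcl1 (949.5), and celecoxib replicate 7 for Ppbp (7.22) and Procr (46.6). Celecoxib replicate 1 was highest for Ighm (9.15) and celecoxib replicate 5 for Actn3 (1.31). Rofecoxib replicate 5 was highest for Il6 (124), Sox10 (21.4) and Thbd (104). Rofecoxib replicate 7 was highest for Clec14a (24.2) and Hpgds (1.11) and rofecoxib replicate 4 for Apln (5.80). Rofecoxib replicate 8 was highest for Acta2 (17395) and lowest for Cma1 (0.796).

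Among controls, replicate 3 was highest for the skeletal muscle genes Actn3 (7.61) and Mylpf (4.30) and lowest for Ace (328) and Gstm1 (315). Control replicate 4 was highest for Ucp1 (602) and Ucp3 (14.8), and control replicate 8 for Angptl7 (48.6) and Ppbp (19.4). Control replicate 2 was highest for Rhbdd2 (85.3) and lowest for Akr1b3 (62.1).

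The effects of the drugs differed by the direct test in 4 of the named genes. Celecoxib minus rofecoxib on the log2 scale was -0.45 for Hsd17b7, 1.12 for Espnl, 0.45 for Fbln5 and -1.48 for Lep, at unequal doses (Benjamini-Hochberg adjusted p by edgeR = 0.0369, 0.0347, 0.0369 and 0.0423).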

How the results depend on the processing

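The class count of 257 was 120 with no filter on low counts, 149 with both drugs as 1 group, 658 with DESeq2, 1465 with limma voom, 805 with a term for replicates 1 to 4 against 5 to 8, 5 in replicates 1 to 4, 601 in replicates 5 to 8 and 723 with adipocyte, Schwann cell and macrophage levels as covariates. The both-drug count of 0 in edgeR (908 at an unadjusted p under 0.05) was 23 with DESeq2, 9 with voom, 1 with that term, 194 in replicates 5 to 8 and 1 with those 3 covariates. The drug-difference count of 710 was 0 with no filter, 1419 with DESeq2, 2073 in replicates 1 to 4 and 0 in replicates 5 to 8 and under either set of covariates. Without 1 library the 3 counts ranged from 50 to 538, 0 to 9 and 0 to 1997. The causes were not tested. Angptl7, at -0.87 for the class, was 0.036 in replicates 1 to 4 alone.

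With the replicate number as a block, the class count was 621, the both-drug count 1 and the drug-difference count 0. The numbers did not pair the samples: 12 of 24 same-numbered pairs correlated above 0.1 (range -0.30 to 0.56), and 2 libraries correlated best with their own number. At this depth genes under 1 CPM rested on few reads.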

Other observations

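Gene groups chosen after the values were seen held further called genes, given as a description. All 13 tubulin genes tested were above 0 (against 55.2% of all genes), at a median class log2 fold change of 0.27, and 4 rose (against 0.847% of all genes), Tubb5 (0.31), Tuba1b (0.32), Tuba4a (0.39) and Tubb4b (0.30). Leaving out 1 library at a time kept the call of Tubb5 in 24 fits, of Tuba1b in 16, of Tuba4a in 11 and of Tubb4b in 6. Fads1 was the 1 called of 12 desaturase and elongase genes (against 1.77% of all genes), whose median was 0.10.

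Further large changes in low or variable genes were those of Arc, a neuronal immediate early gene, at -0.80 (SE 0.19), Sphk1, a sphingosine kinase, at -0.80 (SE 0.20), Vwce at -1.13 (SE 0.24) and Adh7 at 0.86 (SE 0.20), as class log2 fold changes that passed edgeR's test. Without celecoxib replicate 2 Arc was at -0.89.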
